A study of Rattus norvegicus with 3 samples.

Results

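Protocadherins are cadherin-type adhesion proteins of the cell surface, and 42 array probes for 33 genes of this family, of 41012 gene probes in all, were measured in iPS F65, a line of rat induced pluripotent stem (iPS) cells, and in a mixture of rat somatic cells. The members were the gene probes whose name in the array files begins with Pcdh, with the files' marks for predicted or mapped genes removed and Pcdh17 left aside. They fell into 4 probes of the alpha cluster, 17 of the beta cluster, 7 of the gamma cluster and 14 of non-clustered genes. The gene named Pcdh3 is Pcdhb12 in the RefSeq table and was counted in the beta cluster. Pcdh21 is Cdhr1, a cadherin of photoreceptors, and was kept among the non-clustered genes by its older name.

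The iPS F65 cells were untreated and were grown on irradiated mouse embryonic fibroblasts in a medium with fetal bovine serum and serum replacer, and the labels give no allele, age or sex. The mixture, mix1, was made from 2 kinds of cultured rat cells, bone marrow cells and fibroblasts grown from the ear. RNA of 3 samples of iPS F65 was labelled with Cy3, and each was hybridised against mix1 in Cy5 on a 2-colour Agilent array. No array had the dyes swapped, so a dye effect and the difference between the cells cannot be told apart. The labels call the samples repeats and do not say that they came from separate cultures, so the spread that the p-values measure is that of these samples alone and may be technical. F65 is a single line, and mix1 counts as 1 control sample, whose own spread is not in the tests.

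In mammals the clustered protocadherin genes lie side by side in 3 neighbouring groups on a single chromosome. Each alpha and gamma gene has its own variable exon with its own promoter, which is spliced to constant exons that the cluster shares, while beta genes have no constant exons. In neurons each cell expresses a small choice of these genes, and the resulting set of surface proteins lets a neuron tell its own branches from those of other cells. The choice of promoter involves CTCF, cohesin and DNA methylation. Non-clustered protocadherins, most of them called delta protocadherins, are separate genes that act in cell sorting, migration and the wiring of the nervous system.

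Of the gene probes, 57.0% to 60.9% per array were well above background in iPS F65 and 57.7% to 61.5% in mix1. The 3 arrays lay on 1 slide and were scanned once, and their number limits the precision of every value. The labelled cell types were checked against marker genes. Of 16 pluripotency markers listed 9 had a probe and 8 were tested, and of these 7 were higher and 0 lower in iPS F65. For Pou5f1, Cdh1, Dppa3 and Epcam no mix1 array was above background. Their entry to the test, set out below, therefore fixed their direction. All 12 fibroblast markers were lower, with a summed signal of 20165 to 26131 on the iPS channel and of 2.39e+06 to 3.05e+06 on the mix1 channel, and 2 of them (Postn and Thy1) were not above background in iPS F65. Of 9 myeloid markers 8 were lower, and of 4 endothelial markers 1 was higher and 2 were lower. Of 6 epithelial markers 3 were higher and 1 was lower, and of 11 neural markers 8 were higher and 2 lower. No iPS array was above background for 2 myeloid and 2 endothelial markers. No mix1 array was above background for 1 endothelial, 1 epithelial and 3 neural markers. For these, as for Postn and Thy1, entry to the test also fixed the direction. Over all probes tested 31.2% were higher and 24.1% lower. The part of these marker differences in the results on protocadherins was not tested, and in bulk RNA fewer cells of a type and less RNA per cell cannot be told apart.

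The probes are 60 bases long, and close relatives in the clusters share sequence, so the probes were set against each other. The longest run of bases that probes of different genes shared was 12, and the most bases that were the same at a single offset were 37 of 60, for a probe of Pcdhga5 and that of Pcdhga11. Shared runs are shown for chosen sets of related probes, which are not the pairs most alike. In the first set the capitals mark the word CTNACNCTNTANCT, which 4 member probes and 5 of all 41012 probes held.

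Pcdhb5: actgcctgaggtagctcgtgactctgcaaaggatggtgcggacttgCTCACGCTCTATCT
Pcdhb6: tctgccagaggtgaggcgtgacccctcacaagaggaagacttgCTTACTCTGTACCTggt
Pcdhb11: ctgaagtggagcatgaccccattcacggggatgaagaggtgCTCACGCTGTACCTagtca
Pcdhga2: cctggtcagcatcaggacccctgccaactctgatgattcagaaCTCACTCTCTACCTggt

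These 4 probes share the word and differ in their measurements. Pcdhb5 was lower in iPS F65, Pcdhga2 was not called, and the probes of Pcdhb6 and Pcdhb11 were above background in neither channel on any array. In the alpha cluster the probes of Pcdha2 and Pcdha4 share a longer word, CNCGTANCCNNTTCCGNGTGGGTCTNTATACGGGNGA, held by these 2 of all 41012 probes and set in capitals. Both words were built from the probes shown, as the stretch most alike at the best offset, so that the members hold them is given by the choice.

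Pcdha2: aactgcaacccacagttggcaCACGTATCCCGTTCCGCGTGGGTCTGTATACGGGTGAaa
Pcdha4: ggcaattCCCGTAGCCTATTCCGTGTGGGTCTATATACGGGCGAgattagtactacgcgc

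The Pcdha4 probe was lower in iPS F65, and that of Pcdha2 was not above background on any array in either channel.

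Probes entered the test if all 3 arrays of at least 1 channel were well above background, and calls needed an adjusted p under 0.05 (limma, Benjamini-Hochberg) and a change of at least 2-fold. Of the 42 protocadherin probes 26, for 22 genes, were tested. Of these 18 (69.2%) were lower in iPS F65, beside 24.1% of all 25801 probes tested, 2 were higher, beside 31.2% of all, and 6 were neither. In either direction 20 were called, beside 55.3% of all. The median log2 ratio of iPS F65 over mix1 was -2.12 over the 26 probes and 0.27 over all probes tested. Each of the 20 called probes had the same sign on all 3 arrays. A call is made from these same 3 ratios, so this is no separate support. How the dyes were scaled moved the split over all probes. Of all called probes 56.5% were higher with the processed signals used here, 47.1% with each array's median set to 0 and 41.8% after normexp background correction and loess, which moved the median of all probes to -0.06. No tested member changed sign under these scalings, and the median setting changed no member's call. Normexp with loess ended the calls of Pcdh20, of a Pcdh9 probe and of a Pcdhgc3 probe.

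The clusters and the non-clustered genes were also counted apart. Of 28 clustered probes 18 were tested, 14 of these were lower and 0 were higher, and the median log2 ratio was -2.90. Of 14 non-clustered probes 8 were tested, 4 were lower, 2 were higher and 2 were neither, with a median of -0.53, which was -1.53 without Pcdh21 or with Pcdh3 counted here by its name in the files. All 18 tested clustered probes were above background in mix1 on all arrays, and 11 of them were above background in iPS F65 on no array. For these 11 only a bound can be given, written as "at least" below. It sets the mean level in mix1 against the lowest level above background in the iPS channel, or the probe's own level where that was higher. The bounds hold for the processed signals only. After normexp and loess some members fell short of their bound and others did not. The Pcdhb13 probe bounded at 6.95-fold then had a log2 ratio of -2.27, and the Pcdhac2 probe bounded at 35.2-fold had -5.28. With such probes at their bounds the medians were -1.66 for clustered and -0.18 for non-clustered probes. A probe above background on all mix1 arrays but on no iPS array had to read lower in iPS F65. This held for these 11 clustered probes and for 1 non-clustered probe, beside 7.38% of all probes tested. The tested probes of Pcdhb7, Pcdhga5 and Pcdhga9 also entered through mix1 alone, with 1 or 2 iPS arrays above background, so the filter bears on them too. A probe above background on all iPS arrays but on no mix1 array had to read higher, which held for both higher members, Pcdh11x and Pcdh20, beside 5.79% of all. Of the 9 members above background on all arrays of both channels, 5 were lower and 0 were higher. Over all 20525 such probes 18.2% were lower and 6031 probes were higher. In this set 2 of 4 clustered and 3 of 5 non-clustered probes were lower. The counts and medians are therefore descriptions, and probes of a family are not replicates. They do not include the 10 clustered and 6 non-clustered probes that could not be tested.

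**Figure D1:**
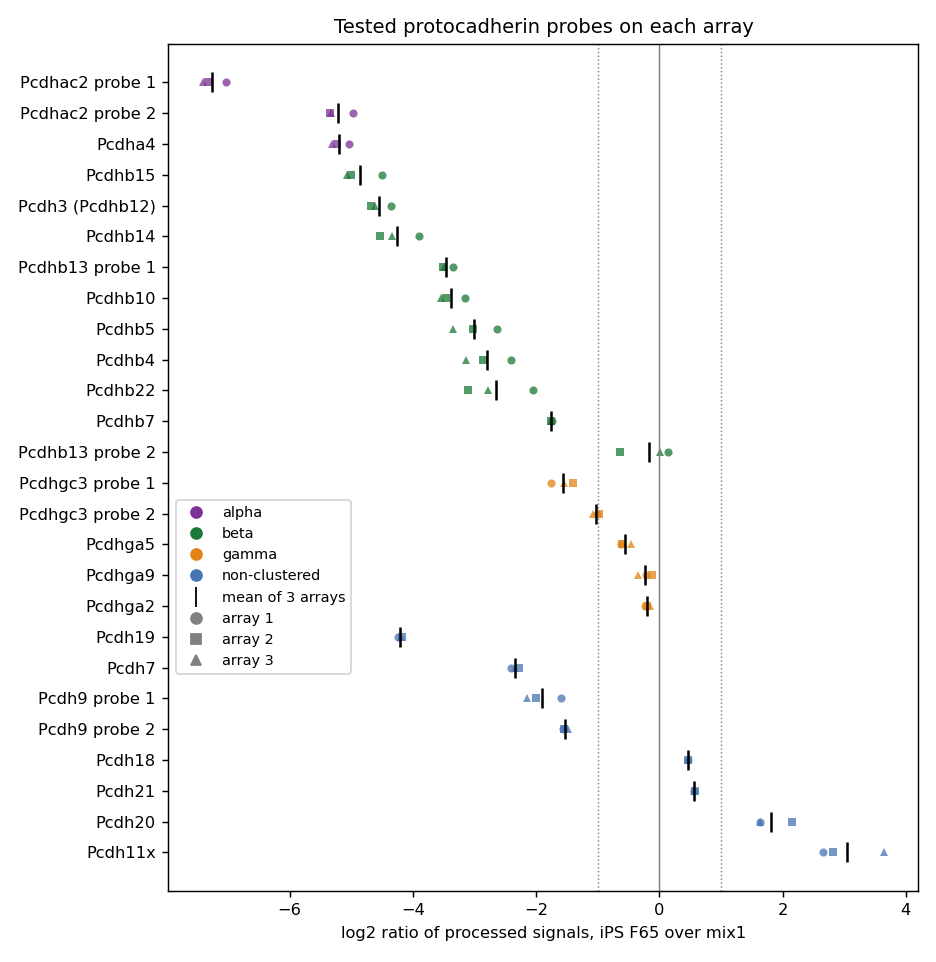
Log2 ratio of processed signals, iPS F65 over mix1 (x axis), of the 26 tested protocadherin probes (y axis), with circles, squares and triangles for arrays 1, 2 and 3, a bar for the mean, colours for the classes and dotted lines at a 2-fold change. The probes of the alpha cluster lie at -7.26 to -5.20, where the iPS signal is not above background and the order is not measured, those of the gamma cluster lie between -1.57 and -0.19, and only non-clustered genes have a mean right of 0; "probe 1" and "probe 2" of a gene are in order of their ratio.

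In the alpha cluster all 3 tested probes, for Pcdhac2 and Pcdha4, were lower in iPS F65, with a median log2 ratio of -5.22, and none of them was above background in iPS F65 on any array. Their entry to the test therefore fixed their direction, and their p-values do not add to it. Pcdhac2 is a C-type isoform, whose variable exon lies next to the constant exons. Its first probe (chr18:29953794-29953853 in the array's own coordinates, for which the file headers name the build rn3) had a processed signal of 15.9, 14.7 and 14.8 in iPS F65 and of 2096, 2363 and 2519 in mix1 on arrays 1, 2 and 3. Its log2 ratio was -7.26 ± 0.20 (SD, n = 3), with a level at least 35.2-fold lower (limma, adjusted p = 1.02e-05).

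The other Pcdhac2 probe (chr18:29954556-29954615) gave 15.4, 14.2 and 14.0 in iPS F65 and 483, 575 and 563 in mix1. Its log2 ratio was -5.22 ± 0.21 (SD, n = 3), at least 8.22-fold lower (limma, adjusted p = 2.15e-05). The array files list 4 RefSeq transcripts for each of these 2 probes, and the RefSeq table holds the alpha genes as a single gene named Pcdha4, so these probes cannot be assigned to the Pcdhac2 isoform alone. The Pcdha4 probe (chr18:29711969-29712028) lies apart from them and is listed with 1 RefSeq transcript. It gave 17.4, 15.8 and 15.6 in iPS F65 and 570, 594 and 621 in mix1, a log2 ratio of -5.20 ± 0.14 (SD, n = 3) and a level at least 9.07-fold lower (limma, adjusted p = 1.09e-05). Of the called probes, that of Pcdha4 lay 13.0 kb and those of Pcdhac2 lay 255 and 256 kb from the first alpha probe. The untested probe of Pcdha2 gave 14.7 to 16.8 in iPS F65 and 22.0 to 40 in mix1, not above background in either.

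The beta cluster was lower at 9 of 10 tested probes, with a median log2 ratio of -3.20. The 9 probes belong to 9 genes, and 8 of them were above background in iPS F65 on no array. The order among these 8 is not known, since only bounds can be given. Their direction was fixed by entry to the test, and their p-values do not add to it. Pcdhb15 (chr18:30314395-30314454) gave 16.2, 13.3 and 13.5 in iPS F65 and 365, 425 and 452 in mix1, with a log2 ratio of -4.85 ± 0.31 (SD, n = 3) and a level at least 6.28-fold lower (limma, adjusted p = 6.16e-05). Pcdhb12, named Pcdh3 on the array (chr18:30273315-30273374), gave 16.3, 14.9 and 14.9 against 334, 383 and 365, at least 5.48-fold lower. Pcdhb14 (chr18:30291272-30291331) gave 19.1, 13.2 and 13.1 against 286, 308 and 264, at least 4.33-fold lower. The iPS values of these 3 genes were not above background, so how far they lay below the mix1 values was not measured.

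Pcdhb5 gave 42.2, 38.2 and 27.2 in iPS F65 and 262, 310 and 279 in mix1, at least 4.31-fold lower. Pcdhb22 gave 44.9, 22.9 and 28.1 against 185, 197 and 193, at least 2.93-fold lower, and Pcdhb10 gave 17.3, 15.5 and 15.8 against 153, 172 and 185, at least 2.58-fold lower. The mix1 signals of these genes were nearer to background than those of the alpha cluster, which keeps the bounds small. Pcdhb4 shows this limit. It gave 17.4, 13.8 and 15.0 against 92.1, 101 and 132, and its log2 ratio of -2.80 ± 0.37 (SD, n = 3) comes with a bound of only 1.62-fold. Pcdhb7 was the called beta gene with an iPS signal above background on 1 array, and it too entered the test through mix1 alone. It gave 62.3, 73.1 and 78.8 in iPS F65 and 208, 248 and 267 in mix1, a log2 ratio of -1.76 ± 0.02 (SD, n = 3), 3.38-fold lower (limma, adjusted p = 6.89e-06).

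Pcdhb13 was measured by 2 probes that differed. They are shown because they are designed to the same gene, with starts 1144 bases apart, and read differently.

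Pcdhb13, downstream probe: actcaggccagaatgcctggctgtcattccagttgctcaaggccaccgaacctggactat
Pcdhb13, upstream probe: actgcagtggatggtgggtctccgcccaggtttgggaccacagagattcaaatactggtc

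The downstream probe (chr18:30278887-30278946) gave 40, 43.1 and 41.9 in iPS F65 and 410, 494 and 473 in mix1, with a log2 ratio of -3.46 ± 0.09 (SD, n = 3), at least 6.95-fold lower (limma, adjusted p = 1.00e-05). It was above background in iPS F65 on no array, so its entry to the test fixed its direction. The upstream probe (chr18:30277743-30277802) was above background on every array in iPS F65 and in mix1 and gave 290, 110 and 120 in the former and 262, 171 and 119 in the latter. Its log2 ratio of -0.16 ± 0.42 (SD, n = 3) was not called (limma, adjusted p = 0.457), its groups overlapped, and without array 2 the ratio was 0.07. The ratios of the 2 probes did not overlap on any array. The other 7 beta probes, for Pcdhb1, Pcdhb3, Pcdhb6 (both probes), Pcdhb11, Pcdhb17 and Pcdhb21, were not tested. Of these, the mix1 channel was above background on 1 array for Pcdhb3, Pcdhb17 and Pcdhb21 and on no array for the others.

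**Figure D2:**
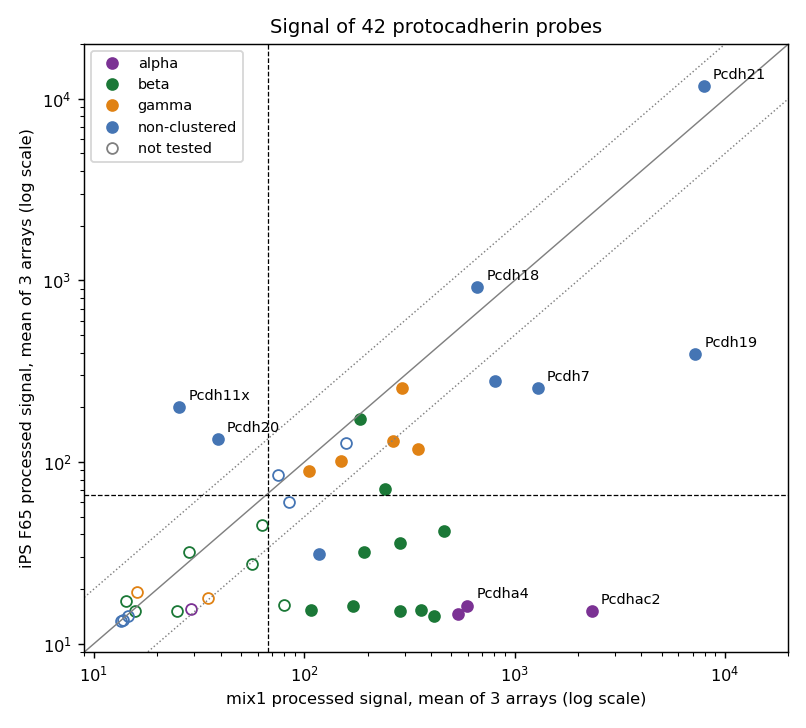
Processed signal in iPS F65 (y axis, log scale) against that in mix1 (x axis, log scale), each the mean of 3 arrays, for the 42 probes, with filled points for tested and open points for untested probes. Dashed lines mark the mean lowest signal above background of a channel, the solid line equal signals and the dotted lines a 2-fold difference; the 3 tested alpha probes and most tested beta probes lie in the lower right, above background in mix1 and below it in iPS F65.

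The gamma cluster was measured in both cell preparations. Of its 5 tested probes 2 were lower, 0 were higher and 3 were neither, with a median log2 ratio of -0.56, and each was above background in iPS F65 on at least 2 arrays. Both called probes were those of Pcdhgc3, a C-type gene at the end of the cluster. The first (chr18:30742867-30742926) gave 92.1, 139 and 125 in iPS F65 and 310, 369 and 363 in mix1, with a log2 ratio of -1.57 ± 0.17 (SD, n = 3), 2.96-fold lower (limma, adjusted p = 0.000269). The second (chr18:30743303-30743362) gave 118, 137 and 135 against 238, 271 and 285, with a log2 ratio of -1.02 ± 0.04 (SD, n = 3), 2.03-fold lower (limma, adjusted p = 3.77e-05). The second probe lies at the 2-fold limit. It was -0.88 after normexp and loess and -0.996 without array 3, and was then not called.

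The variable genes of the gamma cluster lay closer to equal signals. Pcdhga2 gave 219, 272 and 271 in iPS F65 and 259, 312 and 300 in mix1, with a log2 ratio of -0.19 ± 0.04 (SD, n = 3). Pcdhga9 gave 68.5, 106 and 94.6 against 79.2, 116 and 120, with a log2 ratio of -0.23 ± 0.11 (SD, n = 3). Pcdhga5 gave 83.9, 117 and 103 against 129, 177 and 143, with a log2 ratio of -0.56 ± 0.08 (SD, n = 3). In each of the 3 genes the iPS signal was the lower on every array, and the adjusted p (0.00376, 0.0214 and 0.000732, limma) passed 0.05 while the change stayed under 2-fold. Signals of different arrays overlapped between the groups for Pcdhga2 and Pcdhga9, whereas those for Pcdhga5 did not. The second probe of Pcdhga5 and that of Pcdhga11 were above background on no array.

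Along the chromosome the 28 clustered probes and 18 other probes span 1044 kb (chr18:29699012-30743362). Of these other probes, 7 are described as protocadherin in the files without a name that begins with Pcdh, 5 of them were tested and 3 were lower, the probes that RefSeq assigns to Pcdhb8, Pcdhb9 and Pcdhb20. Pcdhb8 had a log2 ratio of -1.22, and of -0.67 after normexp and loess, which is under 2-fold. Pcdhb9 and Pcdhb20 were above background in iPS F65 on no array, with bounds of at least 1.72-fold and at least 2.86-fold lower. The 2 tested probes in the gamma cluster, 1 of them named Pcdhgb7 by RefSeq (0.54) and the other unnamed (-0.67), were not called. A probe for an expressed sequence tag without a gene name, beside that of Pcdhb20, was also lower, at least 3.59-fold, with no iPS array above background. Other genes in the interval had other ratios. Between the beta and gamma clusters, Taf7, a subunit of the general transcription factor TFIID, gave 1540, 1910 and 1916 in iPS F65 and 278, 350 and 336 in mix1, with a log2 ratio of 2.48 ± 0.03 (SD, n = 3), and Slc25a2, a mitochondrial ornithine carrier beside it, had a log2 ratio of 0.87. Inside the gamma cluster, at 1012 kb from the first alpha probe, a probe without a gene name on the opposite strand was higher (log2 ratio 2.02). Inside the beta cluster, at 528 kb, a pair of probes without a gene name had log2 ratios of -0.69 and -0.49 and were not called. The 4 probes for expressed sequence tags on the opposite strand, around the Pcdhac2 probes, were above background in neither channel on any array.

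**Figure D3:**
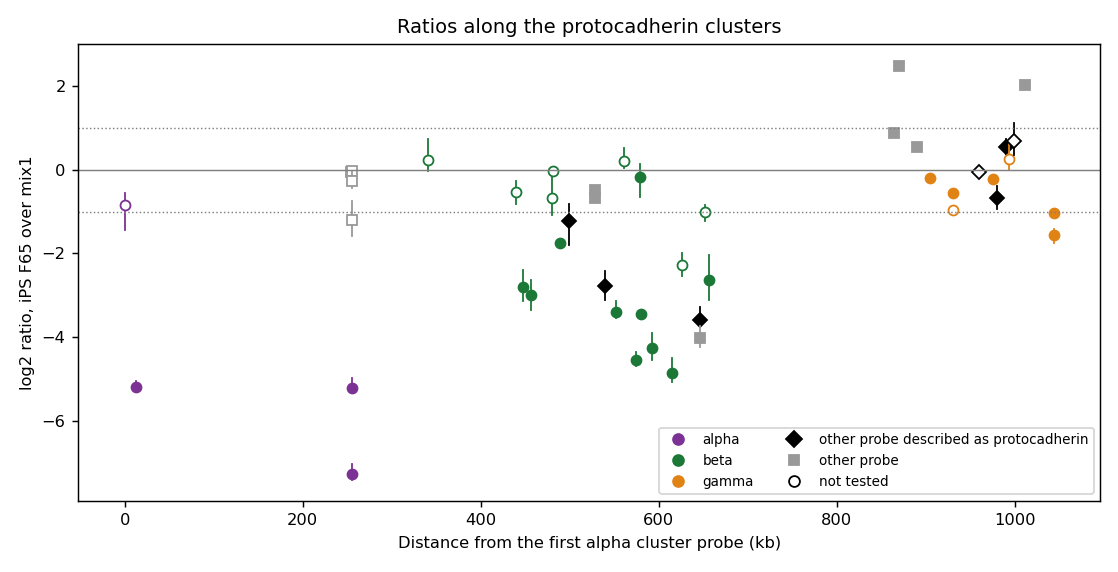
Log2 ratio, iPS F65 over mix1 (y axis), of the 46 probes between the first alpha and the last gamma cluster probe, against the distance from the first alpha probe in kb (x axis); points are means of 3 arrays, lines span the arrays, and open points were not tested. The beta probes lie between 340 and 657 kb, with a tested range of -4.85 to -0.16, and the gamma probes between 905 and 1044 kb, all above -2; Taf7 stands at 2.48 between these clusters.

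The start regions of these genes were read from the RefSeq promoter table (assembly GRCr8, 250 bases before to 50 after each gene's start), which held a window for 26 of the 33 genes. The word GGTGGCGCTG is the one of its length found in the most beta windows and was chosen for that, so its count there is a description. Searched on both strands, it stood in 15 of 19 beta windows, whether or not the gene is on the array, in 0 of 15 gamma windows and 0 of 10 non-clustered windows, and in 0.221% of all 33469 promoters. It contains CGCT, the core of the element known from clustered protocadherin promoters, which by itself stood in 16 of 19 beta, 11 of 15 gamma, 8 of 10 non-clustered and 1 of 1 alpha windows and in 60.9% of all promoters. Of 11 beta member genes with a window 9 hold the longer word. They are shown with 30 bases around it, in capitals, on the plus strand, because tested and untested beta genes share it. Beta genes that are on the array under other names are left out.

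Pcdhb3, chr18:29285604-29285633: atgaacgcatGGTGGCGCTGttgactaaga
Pcdhb4, chr18:29292211-29292240: aaggacgcttGGTGGCGCTGcaggctaagc
Pcdhb5, chr18:29302404-29302433: atgaacgcagGGTGGCGCTGcaggctaaga
Pcdhb6, chr18:29320152-29320181: tagtacacacGGTGGCGCTGcagtctaagg
Pcdhb7, chr18:29328998-29329027: gtggacgcagGGTGGCGCTGcaggctaaga
Pcdhb10, chr18:29391778-29391807: agggacgcgtGGTGGCGCTGtctactaaga
Pcdhb12, chr18:29413648-29413677: aaggacgcttGGTGGCGCTGcaggctaaga
Pcdhb14, chr18:29431809-29431838: cagaacgcttGGTGGCGCTGcaggctaaga
Pcdhb21, chr18:29492149-29492178: atagtcacatGGTGGCGCTGcaggatagga

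Of these genes Pcdhb4, Pcdhb5, Pcdhb7, Pcdhb10, Pcdhb12 and Pcdhb14 were lower in iPS F65, and Pcdhb3, Pcdhb6 and Pcdhb21 were not tested.

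A match is a description of the sequence, and the occupancy of this word was not analysed here.

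The non-clustered genes had calls in both directions, and those called higher were above background in iPS F65 alone. Pcdh19, an X-linked delta protocadherin that forms complexes with N-cadherin and whose variants cause an epilepsy, had the lowest ratio among those above background in both channels (chrX:121183088-121183147). It gave 351, 411 and 414 in iPS F65 and 6657, 7448 and 7550 in mix1, with a log2 ratio of -4.20 ± 0.03 (SD, n = 3), 18.4-fold lower (limma, adjusted p = 5.48e-06), with every array above background in either channel. Pcdh7, an adhesion protein of the delta group (chr14:57323562-57323621), gave 230, 265 and 268 against 1216, 1291 and 1353. Its log2 ratio was -2.34 ± 0.06 (SD, n = 3), 5.06-fold lower (limma, adjusted p = 1.05e-05). In both genes all iPS values lay below all mix1 values.

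Pcdh9, a delta protocadherin of the nervous system, had 4 probes, of which 2 were tested and both were lower. The probe that was above background in both channels (chr15:76750567-76750626) gave 248, 289 and 301 in iPS F65 and 733, 847 and 841 in mix1, with a log2 ratio of -1.53 ± 0.04 (SD, n = 3), 2.89-fold lower (limma, adjusted p = 1.56e-05). The other tested probe (chr15:75843258-75843317) gave 36.4, 30.7 and 27.0 against 110, 122 and 119, a log2 ratio of -1.91 ± 0.29 (SD, n = 3) with a bound of 1.77-fold. After normexp and loess this probe was at -0.84 and was not called. The remaining 2 Pcdh9 probes were not above background often enough to be tested.

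Pcdh11x and Pcdh20 were the members called higher in iPS F65. Neither was above background in mix1 on any array, so their entry to the test fixed their direction, and their p-values do not add to it. Pcdh11x, an X-linked delta protocadherin (chrX:110002944-110003003), gave 190, 218 and 194 in iPS F65 and 30.0, 30.8 and 15.4 in mix1, where it was above background on no array. Its log2 ratio was 3.04 ± 0.53 (SD, n = 3), at least 2.98-fold higher (limma, adjusted p = 0.000979). A second Pcdh11x probe, 628 kb away in the array's coordinates, gave 13.2 to 16.4 in iPS F65 and 13.3 to 16.5 in mix1 and was not tested. The 2 probes are shown because only the first gave a signal.

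Pcdh11x, measured probe: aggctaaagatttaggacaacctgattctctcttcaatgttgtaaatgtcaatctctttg
Pcdh11x, untested probe: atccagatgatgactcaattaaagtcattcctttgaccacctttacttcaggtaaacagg

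Pcdh20 (chr15:70778588-70778647) gave 121, 133 and 148 in iPS F65 and 39.1, 29.9 and 47.5 in mix1, again above background in iPS F65 only. Its log2 ratio was 1.81 ± 0.30 (SD, n = 3), with a bound of 1.997-fold, under the 2-fold limit (limma, adjusted p = 0.000839), and after normexp and loess it was 0.76 and not called. Of the probe for Pcdh10, described as protocadherin under another name and so no member, the log2 ratio was 2.77 ± 0.23 (SD, n = 3), also higher.

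Pcdh18, of the delta group, and Pcdh21 were not called. Pcdh18 gave 850, 969 and 945 in iPS F65 and 613, 700 and 684 in mix1, with a log2 ratio of 0.47 ± 0.003 (SD, n = 3). Pcdh21 gave 10575, 12481 and 12195 against 7183, 8387 and 8227, with a log2 ratio of 0.57 ± 0.01 (SD, n = 3). Both were higher in iPS F65 on every array by less than 2-fold, and after normexp and loess their log2 ratios were 0.09 and 0.18. Leaving Pcdh21 out moved the median of the non-clustered probes from -0.53 to -1.53, since few probes lie near the middle. Pcdh1, Pcdh8 and Pcdh12 were not tested. Pcdh12, an adhesion protein of endothelium, gave 352, 17.4 and 13.5 in iPS F65 and 350, 68.4 and 56.1 in mix1, so that array 1 stood apart in both channels.

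**Figure D4:**
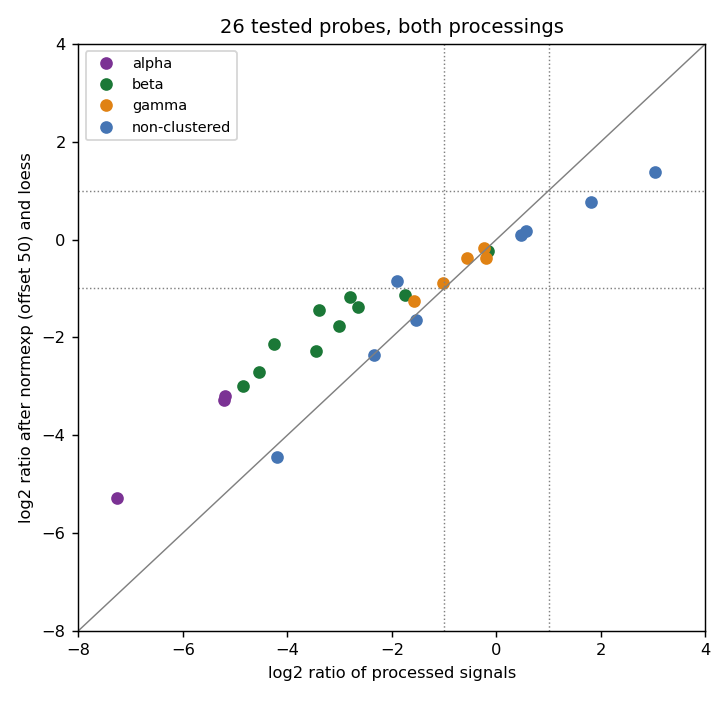
Log2 ratio after normexp background correction (offset 50) and loess (y axis) against that of the processed signals (x axis) for the 26 tested probes, means of 3 arrays; the solid line marks equal values and the dotted lines a 2-fold change. All points keep their sign, and the low ratios of the alpha and beta clusters are nearer to 0 on the y axis, with a beta median of -1.60 in place of -3.20.

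Genes that act on or with protocadherins, and a group of giant and seven-pass cadherins, were followed in 5 lists. Of 7 tested genes of CTCF and cohesin 2 were higher and 0 lower. Ctcf, the DNA-binding factor that occupies clustered protocadherin promoters, had the highest ratio of the list. It gave 21503, 26161 and 26205 in iPS F65 and 6484, 8132 and 8090 in mix1, with a log2 ratio of 1.70 ± 0.02 (SD, n = 3). Of 7 tested genes of DNA methylation and repression 6 were higher and 0 lower, with 3 higher when each array's median was set to 0 and 2 higher after normexp and loess. The highest ratio was that of Dnmt3b, a de novo DNA methyltransferase that is also a pluripotency marker, at 7980, 9339 and 8894 against 469, 466 and 465 and a log2 ratio of 4.22 ± 0.12 (SD, n = 3). Of 7 tested genes of the proteases that cleave protocadherins 1 was higher (Psen2, log2 ratio 1.12) and 3 were lower, the lowest Aph1b, a gamma-secretase subunit, at -2.50 ± 0.04 (SD, n = 3). With each array's median set to 0 these counts were 0 and 4.

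Of 14 tested genes for cytoplasmic partners, among them kinases and the WAVE complex that regulates actin, 3 were higher and 1 was lower, and 2 and 4 after normexp and loess. Cyfip2, a WAVE complex subunit, was at least 5.21-fold higher, with 302 to 378 in iPS F65 and 42.1 to 55.0 in mix1, not above background there. Ptk2b, the kinase PYK2 that protocadherins bind and inhibit, was at least 26.9-fold lower. It gave 28.5 to 42.1 in iPS F65, not above background, and 1605 to 1881 in mix1. Of 7 tested genes in the list of giant and seven-pass cadherins and Fjx1, 2 were higher and 2 lower. Celsr1, a seven-pass cadherin of planar cell polarity, was at least 2.98-fold higher, and Dchs1, a giant cadherin that binds Fat4, had a log2 ratio of -4.04 ± 0.02 (SD, n = 3). Celsr1 was above background on no mix1 array, and entry to the test fixed the direction of Cyfip2, Ptk2b and Celsr1. With only probes above background in both channels, 2 of 12 cytoplasmic partners were higher and 0 lower. In the cadherin list 1 of 6 was then higher and 2 were lower. The counts of the 5 lists stand beside 31.2% higher and 24.1% lower over all probes tested.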

How the data were processed

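Total RNA of 3 iPS F65 samples (Cy3) and of mix1 (Cy5) was measured on 3 Agilent arrays. Agilent Feature Extraction 9.5.3.1 wrote the scanner files, per the file headers, and they give intensity values per spot as deposited, background-subtracted and dye-normalised by the software into processed signals. The deposited log10 ratio of red over green was not used. The authors' deposited value table holds log2 values, which for all 41012 probes equalled the processed green over processed red signal, averaged over spots, with a largest difference of 3.1e-06 and medians of 0.00, -0.01 and -0.06 on arrays 1, 2 and 3. They were therefore on the log2 scale, iPS F65 over mix1, and not centred further.

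Of 45018 spots per array 43379 measured genes. Control spots and outlier spots (204 to 213 per array) were left out, no spot was saturated, and spots of a probe were averaged. The lowest signal above background was 62.8 to 71.1 in the iPS channel and 63.4 to 73.3 in the mix1 channel. Testing required all 3 arrays of the Cy3 or of the Cy5 channel above background (25801 probes). Using limma 3.58.1 in R 4.3.3, lmFit and eBayes set each mean ratio against 0 over all these probes, with Benjamini-Hochberg adjustment, and the procedure was tested on simulated data. Bounds were taken from processed signals after Aquantile scaling. Every member was named where tested, and from each partner list the called gene with the largest ratio in each direction. In the partner and marker lists each gene was counted by a single tested probe, the one with the highest summed log level of both channels. Members and lists were chosen with earlier results of these data known. Names were matched to RefSeq (GRCr8) by accession for 13 member probes. Which exon or UTR a probe lies in was not analysed here. Alternatives were another background correction with loess, no background subtraction, median centring, other filters, no fold limit and leaving out each array. A promoter sequence of the gamma cluster is not reported here.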

Additional observations from a re-analysis of the deposited data

How the results depend on the processing

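Calls and directions of the 26 tested probes were recomputed under each alternative. The 14 lower and 0 higher clustered probes were within 1.5 times of these counts under every alternative except with only probes above background in both channels. That setting left 2 lower of 4 clustered probes, and 5 lower and 0 higher of 9 protocadherin probes. It also left 0 higher of 5 non-clustered probes and 3744 lower of 20525 probes over all. Normexp with loess gave 1 higher protocadherin probe, also the only higher non-clustered one, and 4752 higher probes over all, and loess without background subtraction gave 1, 1 and 4751. With no fold limit 4 protocadherin probes, all non-clustered, were higher, and 14174 probes over all were higher and 10506 lower. Calling a probe at its bound only from 2-fold, chosen after seeing the data, left 1 higher protocadherin probe, a non-clustered one. It left 16 lower protocadherin probes, 13 of them clustered and 3 non-clustered. Under normexp with loess 3 probes lost their call, and 3 without background subtraction.

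The medians moved more. Under normexp with loess, loess without subtraction and median centring, the alpha median was -3.28, -3.18 and -5.49, the gamma median -0.38, -0.42 and -0.83, the non-clustered median -0.37, -0.36 and -0.80, the protocadherin median -1.32, -1.29 and -2.40 and the median of all probes -0.0617, -0.0559 and 0.0025. The beta median was -1.60 and -1.55 under the loess settings. With only probes above background in both channels the medians were -0.16 (beta), -1.02 (gamma), -1.53 (non-clustered), -1.02 (all protocadherins) and 0.31 (all probes). Without a filter they were -2.29 (beta), -0.0255 (non-clustered), -0.98 (all protocadherins) and -0.0183 (all probes). Counting Pcdh3 by its name in the files, or leaving out Pcdh21, both chosen after seeing the data, gave a non-clustered median of -1.53. The filter and class settings change which probes enter, and for the others the cause was not tested.

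Leaving out 1 array gave 17 to 18 lower and 2 higher protocadherin probes, 13 to 14 lower clustered probes, 8003 to 8046 higher and 6130 to 6184 lower probes over all. The upstream Pcdhb13 probe, not called, ranged from -0.317 to 0.0749 over these settings, the higher value without replicate 2. The slide as a block was not run, since all arrays lay on 1 slide. No paired analysis was possible because there is 1 group of samples and a single control RNA. Signals near background limit the alpha and beta clusters, where 3 of 3 and 8 of 10 tested probes have only a bound.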

Other observations

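Beyond the members, 15 probes are described as protocadherin in the array files under other names. Of these 7 were tested, 3 were lower and 1 was higher in iPS F65. The probe that RefSeq assigns to Pcdhb16l had a log2 ratio of 0.45 ± 0.07 (SD, n = 3) and was not called. The probes assigned to Pcdh15, Dchs2, Pcdhga7, Pcdhgb8 and Pcdha13-ps1 were above background on no array.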
